A study of Mus musculus with 64 samples.

Results

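Egr1, the AP-1 subunits Fos, Fosb, Jun and Junb, the stress-induced factor Atf3, and the early-response genes Ier2, Ier3, Zfp36 and Dusp1 were followed across progenitors of the fetal mouse liver with and without Smarcd2. The 10 genes were chosen by name and matched by Ensembl identifier, out of 38924 genes listed in the LSK counts. All 10 were listed in LSK, CMP and GMP counts, and 9 in MEP counts, where Atf3 was not analysed here. The series holds 64 RNA-seq libraries from C57BL/6 fetal liver cells, sorted as LSK cells (lineage-negative, Sca-1 and c-Kit positive stem and progenitor cells), common myeloid (CMP), granulocyte-monocyte (GMP) and megakaryocyte-erythroid progenitors (MEP). Smarcd2 encodes a subunit of the SWI/SNF chromatin remodelling complex, and fetuses were Smarcd2 +/+ (WT), Smarcd2 +/- (HET) or Smarcd2 -/- (KO). There were 5 WT, 9 HET and 9 KO libraries of LSK, 3, 7 and 4 of CMP, 3, 7 and 3 of GMP, and 3, 7 and 4 of MEP, labelled 13 to 14 days post coitum except 1 CMP HET library labelled 14.5. The labels name no treatment and no Cre driver for any group. KO and WT libraries of 1 population share their gate, sorting buffer and library kit.

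Immediate early genes are transcribed within minutes of a signal, without new protein synthesis, and their transcripts decay fast. ERK and p38 signalling acts on them through serum response factor at CArG boxes and through CREB family factors at TGACG sites. Egr1 is a zinc finger factor that has been linked to quiescence of blood stem cells and to the monocyte fate, and Fos and Jun proteins pair to form AP-1. Zfp36 destabilises AU-rich mRNAs, Dusp1 dephosphorylates p38 and JNK, Ier3 modulates survival and ERK signalling, and Ier2 is a small nuclear protein.

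RefSeq promoter sequence on GRCm38.p6 was held for 8 of the 10 genes, all but Egr1 and Ier2. The 250 bases before the start site held TGACG on either strand in 5 of these 8 (Fos, Fosb, Junb, Dusp1 and Atf3), against 17.8% of 32851 promoters. A CArG box was found in 1 of 8 (Zfp36), against 1.47% of promoters. GCGGGGGCG, the EGR site, was found in 2 (Fosb and Zfp36), against 2.57%, and TGANTCA, the AP-1 site, in 0, against 6.75%. The stretches below show the TGACG match nearest the start site, in capitals, for the 4 genes where no annotated exon overlapped it; on the minus strand of the promoter the match reads CGTCA.
Fos, chr12:85473794-85473858, plus strand: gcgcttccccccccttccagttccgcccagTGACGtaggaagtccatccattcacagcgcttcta
Fosb, chr7:19310071-19310135, minus strand: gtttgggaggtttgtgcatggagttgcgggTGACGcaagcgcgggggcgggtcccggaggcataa
Junb, chr8:84978820-84978884, minus strand: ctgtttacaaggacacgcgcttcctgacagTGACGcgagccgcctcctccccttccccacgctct
Dusp1, chr17:26508578-26508642, minus strand: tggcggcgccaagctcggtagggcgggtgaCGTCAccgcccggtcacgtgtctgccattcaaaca
The matches start at positions -66 (Fos), -60 (Fosb), -106 (Junb) and -140 (Dusp1) from the RefSeq start site. The Fosb stretch also carries the EGR site. These matches are a description of letters, and binding was not measured.

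The gates were reflected in marker levels. In WT, the 7 CMP and GMP markers summed to 8533 to 27876 CPM in GMP, 3953 to 5354 in CMP, 2324 to 2978 in LSK and 311 to 470 in MEP (6 listed), although 1 GMP HET library had only 754. Libraries held 1006090 to 24069833 reads on genes, with a median of 7121219 in LSK and 2963410.5 in MEP. Smarcd2 followed the labels. Its level in CPM (gene reads scaled to a common library size) was 55.9 ± 8.54 (SD, n = 5) in LSK WT, 33.7 ± 14.1 (n = 9) in HET and 1.28 ± 0.41 (n = 9) in KO, and KO libraries did not exceed 1.94 CPM in any population. The labels do not say which libraries came from separate fetuses, so p-values measure the spread between these libraries. In sorted bulk samples, fewer expressing cells and less RNA per cell cannot be told apart. The method does not mark strand, so reads of Jun and Junos, Junb and Prdx2, Zfp36 and Gm44710, and Dusp1 and Ergic1 cannot be told apart where those genes overlap.

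In LSK cells the largest differences in the members ran between the series of the library titles (the number before the point, 19, 20, 21, 22 or 24, whose meaning the labels do not give), and not between genotypes. Egr1 was 3.44 to 4.12 CPM in the 6 libraries of series 21, 5.33 to 24.23 in the 3 of series 20, 13.7 to 33.9 in the 6 of series 19, 121 to 257 in the 5 of series 22, and 95.8 to 227 in the 3 of series 24. Series 19, 21, 22 and 24 each held all 3 genotypes, and the ranges of series 19, 21 and 22 did not overlap one another. Between the lowest and the highest LSK library, Egr1 differed 74.5-fold and Fos 533-fold.

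The other AP-1 subunits were ordered by series as well. Fos was 0.697 to 3.09 CPM in series 21, 16.7 to 65.7 in series 19, 110 to 301 in series 22 and 295 to 372 in series 24. Jun was 8.85 to 13.5 CPM in series 21, 41.5 to 80.0 in series 19, 132 to 224 in series 22 and 175 to 184 in series 24. Series 21 was thus the low extreme for both partners of AP-1, and series 22 and 24 the high one. Junb, 4.02 to 6.76 CPM in series 21 and 16.3 to 46.5 in series 24, spanned less. Fosb reached 10.1 CPM in series 24 and had a median of 0 CPM in series 21. Atf3, at most 0.915 CPM in series 21, reached 17.8 CPM in series 22. Series 21 was not its lowest, with medians of 0.344, 0.287 and 0.688 CPM in series 19, 20 and 21.

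The genes of feedback and mRNA decay followed the same order. Zfp36 was 17.3 to 24.02 CPM in series 21, 32.2 to 58.0 in series 19, 119 to 190 in series 22 and 163 to 222 in series 24. Dusp1 was 13.9 to 18.2 CPM in series 21 and 97.4 to 170 in series 24. Ier2 was 25.9 to 34.9 CPM in series 21 and 45.5 to 90.3 in series 24, a narrower span than the others. Ier3 overlapped between all series, with 10.3 to 26.3 CPM in series 21 and 14.1 to 54.4 in series 24.

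**Figure D1:**
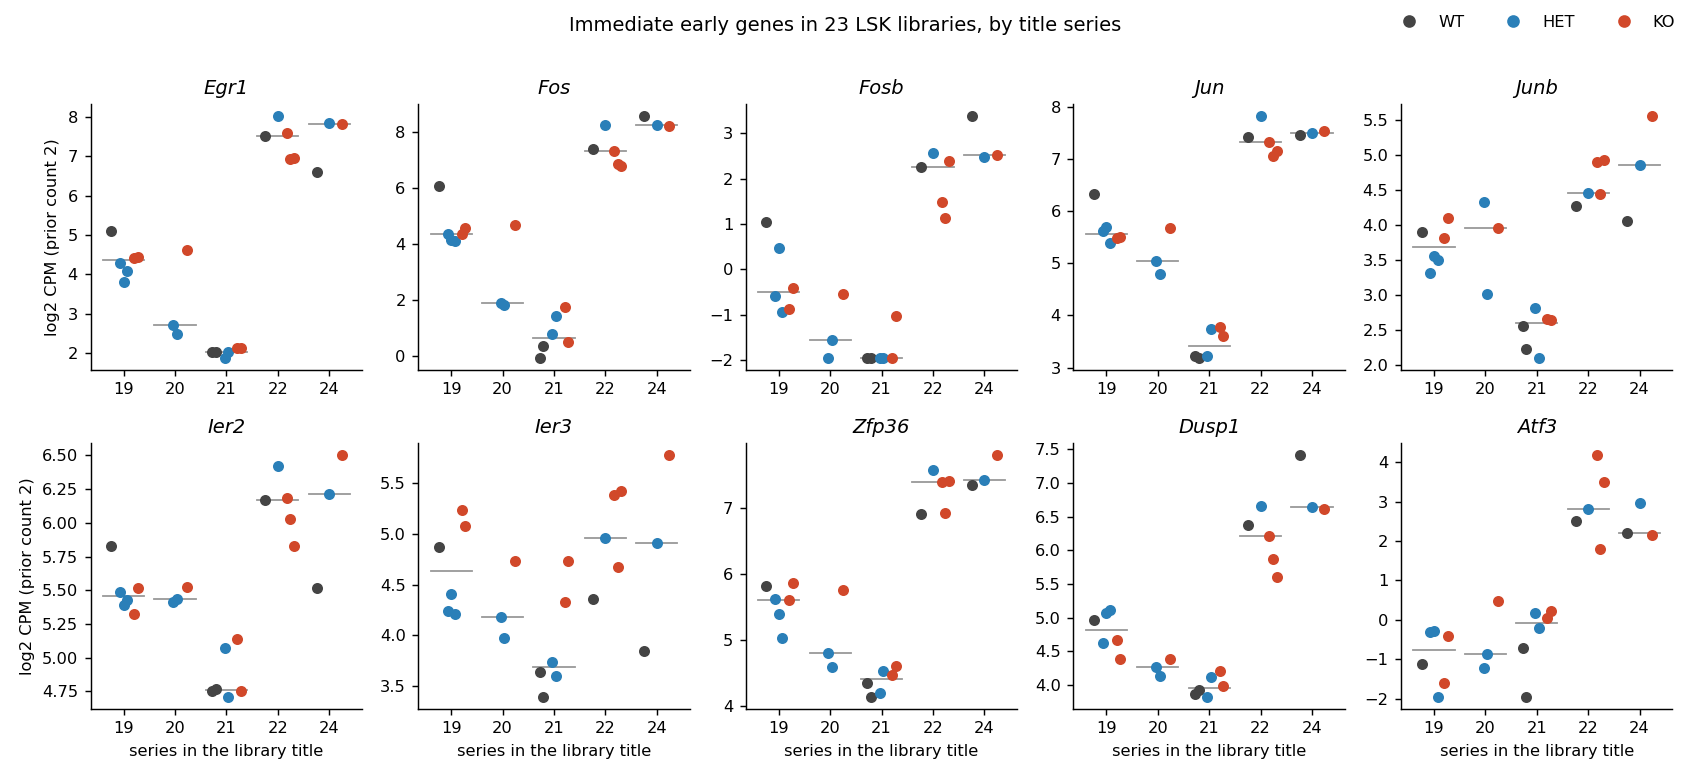
Level of each of the 10 genes (log2 CPM, prior count 2) in the 23 LSK libraries, by the series number in the library title; points are libraries coloured by genotype and grey lines are series medians. The Egr1, Fos, Jun, Zfp36 and Dusp1 points are lowest in series 21 and highest in series 22 and 24 in all 3 genotypes, while the Ier3 KO points lie above the WT points of the same series.

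In a model with genotype and series, 10 of 10 members passed the F test of the series term (edgeR's quasi-likelihood test, Benjamini-Hochberg adjusted p under 0.05), against 11.9% of the 13878 genes tested. The model was added after the levels had been seen, so it measures a pattern already noticed. By p, Dusp1 ranked 1, Jun 3, Zfp36 4, Fosb 17, Egr1 36, Atf3 37, Junb 51, Fos 64, Ier2 77 and Ier3 555 of 13878. Series means held 95.1% of the variance of Egr1's log2 CPM and 96.9% of Jun's, and genotype means 4.76% and 1.95%. For Ier3 the shares were 41.9% for series and 47.5% for genotype. In CMP, GMP and MEP, whose titles carry other series names (M32, M33 and M34), the same term called 0 genes. At an unadjusted p under 0.05 it had 1145 of 11658, 929 of 12239 and 1601 of 11686 genes. Series M34 held only KO libraries, so series and genotype are partly confounded there.

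Macrophage markers moved with the series too. All 11 listed markers (such as Adgre1, Csf1r, C1qa and Cd68) summed to 112 to 211 CPM in series 19, 213 to 409 in series 20, 188 to 578 in series 21, 409 to 1961 in series 22 and 1016 to 1289 in series 24, and 10 of the 10 tested passed the series test. The KO library of series 22 with the lowest sum, 409 CPM, had 121 CPM of Egr1 and 115 CPM of Fos, above every library of series 19, 20 and 21. Series 21, with the lowest Egr1, had higher sums than series 19, with medians of 380 and 184 CPM. LSK markers summed to 2193 to 3014 CPM over the 23 libraries, and 2 of 7 (Hlf and Ly6a) passed the series test. Their sums did not overlap between series 20 (2413 to 2488 CPM) and series 21 (2559 to 3014), while series 19, 22 and 24 overlapped both. Markers of other cells passed it too: 4 of 5 tested for B cells, 3 of 4 for neutrophils and monocytes, 4 of 7 for erythroid cells and 4 of 8 for endothelial and stromal cells. Over all 13878 genes tested, 11.9% passed the series test. Neutrophil and monocyte markers summed to 1237 to 1399 CPM in series 20 and to at most 1197 in the others. The part of these cells in the member levels was not tested. Spike-in shares and read depth overlapped between series.

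**Figure D2:**
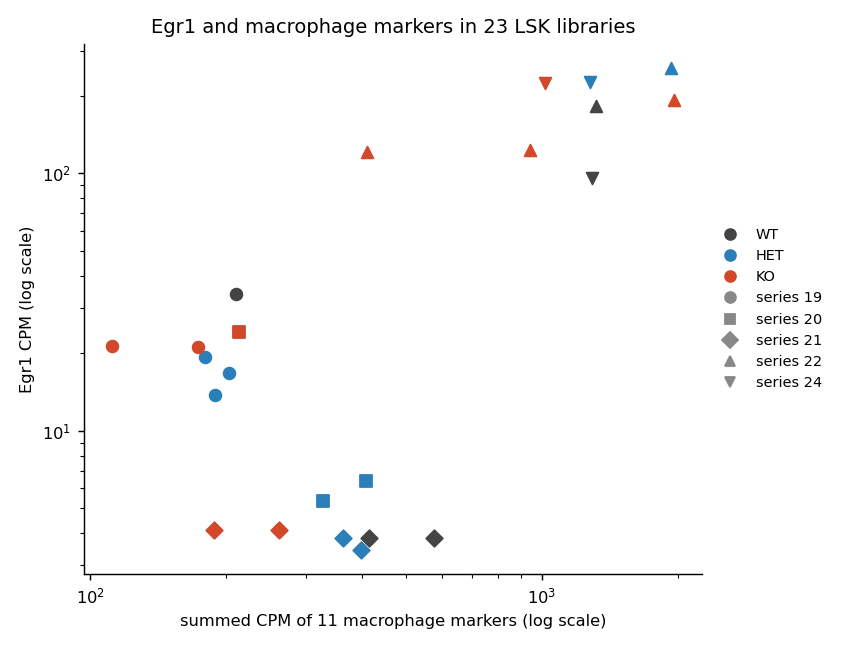
Egr1 CPM (log axis) against the summed CPM of 11 macrophage markers (log axis) in the 23 LSK libraries, coloured by genotype, with a marker shape for each title series. Series 22 and 24 lie at 95.8 to 257 CPM of Egr1, including the library whose marker sum of 409 CPM falls within the range of series 21.

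In the main setting, with genotype means alone removed, Egr1 had Pearson r from 0.78 (Ier3) to 0.98 (Zfp36) with the 9 other members. Those values hold the differences between series described above. Because the libraries fall into clusters by series, Egr1 was also related to the other members within series and after series means were removed. Within series 19, Egr1 and Fos had a Pearson r of 0.92 (exact permutation p = 0.00694, 6 libraries), with 0.91 after the 2 libraries farthest from the Egr1 median were left out. None of the 18 relations of Egr1 with another member within series 19 or series 21 passed after adjustment, and the lowest adjusted exact permutation p was 0.125. In series 21 the r of Egr1 with Fos was 0.21. With genotype and series means removed, 5 of the 9 members were correlated with Egr1 over the 23 libraries (permutation test, adjusted over 9 relations). These were Zfp36 (Pearson r 0.75, Spearman rho 0.67), Fos (0.74 and 0.66), Jun (0.72 and 0.67), Ier2 (0.67 and 0.70) and Ier3 (0.58 and 0.47), with adjusted p of r from 0.00027 (Fos and Zfp36) to 0.00754 (Ier3). Without the 2 libraries farthest from the Egr1 median, these r were 0.57, 0.56, 0.58, 0.71 and 0.65. Dusp1, with r 0.20, was the lowest of the 9. The permutations for these 9 relations shuffled over all 23 libraries and not within series. Since the spread of Egr1 differed between series, their p-values are approximate.

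Against genotype, Ier3 was the 1 member of 10 that passed in LSK KO against WT, where 18.8% of all 13878 genes passed, so the share of members called was not above that of all genes. Ier3 was 10.3, 12.2, 14.1, 20.29 and 29.0 CPM in the 5 WT libraries, and 19.8, 33.4 and 54.4 (lowest, median, highest) in the 9 KO libraries. 5 KO libraries lay above every WT library and the rest overlapped them. The log2 fold change was 0.99 ± 0.27 (SE; adjusted p = 0.014, edgeR), a 1.98-fold difference. Within series, KO libraries were above WT in each of the 4 series that held both: 2 of 2 in series 19, 2 of 2 in series 21, 3 of 3 in series 22 and 1 of 1 in series 24. With series as a block the value was 0.91 (adjusted p = 0.000764), and with the spike-in share in the model it was 0.96 (adjusted p = 0.0563).

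Egr1 showed no such order by genotype. It was 3.82, 3.83, 33.9, 95.8 and 183 CPM in WT, 3.44, 13.7 and 257 (lowest, median, highest) in HET, and 4.12, 24.23 and 224 in KO, so the 3 genotypes covered the same range. Its log2 fold change in KO against WT was 0.33 ± 1.19 (adjusted p = 0.881), and within series the mean KO minus WT difference was -0.67, 0.10, -0.37 and 1.22 in series 19, 21, 22 and 24. Junb had an estimate of 0.77 ± 0.51 (adjusted p = 0.317) without series in the model and 0.52 with series as a block (adjusted p = 0.0688). Its mean KO minus WT log2 difference within series was 0.05, 0.26, 0.49 and 1.498 in series 19, 21, 22 and 24. Atf3, at few reads, was 1.05 ± 1.17. With series as a block, Ier3 was still the 1 member of 10 called. Fos, Fosb, Jun and Dusp1 had estimates below 0 (-0.53, -0.89, -0.04 and -0.57), with SE of 0.64 or more. No member had every KO library above every WT library, against 2.77% of all genes.

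In KO against HET, Ier3 was again the 1 member called, at 0.79 ± 0.22 (adjusted p = 0.0212), where 11.1% of genes passed. The comparison shares its KO libraries with the one above. In HET against WT 0 of 10 members passed (0 at an unadjusted p under 0.05, and 0 by DESeq2), where 0.00721% of genes passed.

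In CMP the members differed between KO and WT libraries. Series M34 held 2 of the 4 KO libraries and no other genotype, so series and genotype are partly confounded. 9 of the 10 members had every KO library above every WT library, the exception being Jun, where 8.97% of the 11658 genes tested did. All 10 log2 fold changes were above 0, with a median of 1.00 against -0.01 over all genes tested. Egr1 and Zfp36 passed the test, where 1.84% of genes passed in KO against WT. The members were chosen with these data already examined, so the count describes them and is no test of the group.

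Egr1 was 28.5, 30.8 and 24.7 CPM in the CMP WT libraries and 101, 66.5, 90.7 and 148 CPM in the KO libraries. All KO libraries lay above all WT libraries, and also above all 7 HET libraries, which ran from 22.9 to 46.3 CPM. The difference was 3.62-fold (log2 1.86 ± 0.28, adjusted p = 0.000947, edgeR). The title series M34 held only KO libraries. Within the others, KO was 101 against 29.7 CPM in M32 and 66.5 against 24.7 in M33, and with series as a block the log2 value was 1.57 (adjusted p = 0.0178).

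Zfp36 was 62.8, 48.4 and 66.0 CPM in CMP WT and 103, 101, 116 and 151 CPM in KO, again without overlap. The log2 fold change was 0.99 ± 0.23 (adjusted p = 0.0248). The call was lost with series as a block (0.74, adjusted p = 0.265), with the spike-in share in the model (0.73, adjusted p = 0.142), and without WT library 2, 5 or 12 or KO library 13 or 15 (adjusted p = 0.119, 0.14, 0.0712, 0.0585 and 0.092). Over the 14 CMP libraries, with genotype means removed, Zfp36 had Pearson r -0.83 and Spearman rho -0.66 with the length index, the contrast between long and short transcripts in a library (adjusted permutation p = 0.00139 and 0.0591), and r -0.75 without the 2 farthest libraries. The index was -0.16 to 0.19 in WT and -0.30 to 0.38 in KO, and with it in the model Zfp36 was 0.98 (adjusted p = 0.00158).

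Of the AP-1 subunits, Junb was 19.301, 16.5 and 17.9 CPM in CMP WT and 41.8, 24.8, 34.6 and 49.4 CPM in KO, with a log2 difference of 1.07 ± 0.28 (adjusted p = 0.0583). Fos was 160, 175 and 168 CPM in WT and 289, 202, 293 and 466 CPM in KO, a difference of 0.90 ± 0.29 (adjusted p = 0.144). Neither overlapped between the groups, and neither passed over all genes. Fosb was 5.88 ± 1.73 CPM in WT and 11.6 ± 6.53 CPM in KO, with KO library 6 at 21.21. Jun overlapped, with 45.6 to 84.5 CPM in WT and 55.7 to 131 CPM in KO.

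Ier3 was 10.4, 13.8 and 10.3 CPM in CMP WT and 26.7, 21.65, 16.6 and 22.24 CPM in KO, a log2 difference of 0.93 ± 0.24 (adjusted p = 0.0573). Ier2 was 41.2 to 61.4 CPM in WT and 68.3 to 164 CPM in KO, and Dusp1 73.7 to 97.2 and 101 to 231 CPM. With genotype means removed, Dusp1 had r -0.65 and rho -0.53 with the length index in CMP (adjusted permutation p = 0.0453 and 0.159). KO library 15 was the highest of the KO libraries for Egr1, Fos, Junb, Zfp36, Ier2, Dusp1 and Atf3. Atf3 was low, 0.777 to 1.38 CPM in WT and 1.51 to 6.80 CPM in KO. By DESeq2, Egr1, Zfp36, Junb and Ier3 passed.

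Against HET, Egr1 (log2 1.59 ± 0.21, adjusted p = 0.000318), Zfp36 (1.07 ± 0.18, adjusted p = 0.0023) and Junb (0.88 ± 0.22, adjusted p = 0.0425) rose in CMP KO, where 2.19% of genes passed. Zfp36 was not called with series as a block (adjusted p = 0.0806) or with the spike-in share (adjusted p = 0.0533). Junb was called in 3 of the 14 fits that left out 1 library. CMP HET against WT called 0 of 10 members (0 unadjusted, 0 by DESeq2), and 0% of genes.

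Other quantities differed between CMP KO and WT. Hepatocyte markers, all 9 listed, summed to 309 to 790 CPM in WT, 31.0 to 1780 in HET and 35.5 to 128 in KO. The 5 of 7 LSK markers listed summed to 1041 to 1210 CPM in WT, 656 to 1242 in HET and 1316 to 1448 in KO. Macrophage markers (8 of 11 listed) summed to 240 to 397 CPM in WT and 317 to 482 in KO. No defining marker of these lists was at 0 in every library of a group. Neutrophil and monocyte markers (8 of 9 listed) summed to 3690 to 4816 CPM in WT and 2786 to 4089 in KO, where 2 of them had no read. Erythroid markers (7 of 8 listed) summed to 1146 to 6104 CPM in WT and 113 to 2883 in KO. The part of all these cells in the member levels was not tested.

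**Figure D3:**
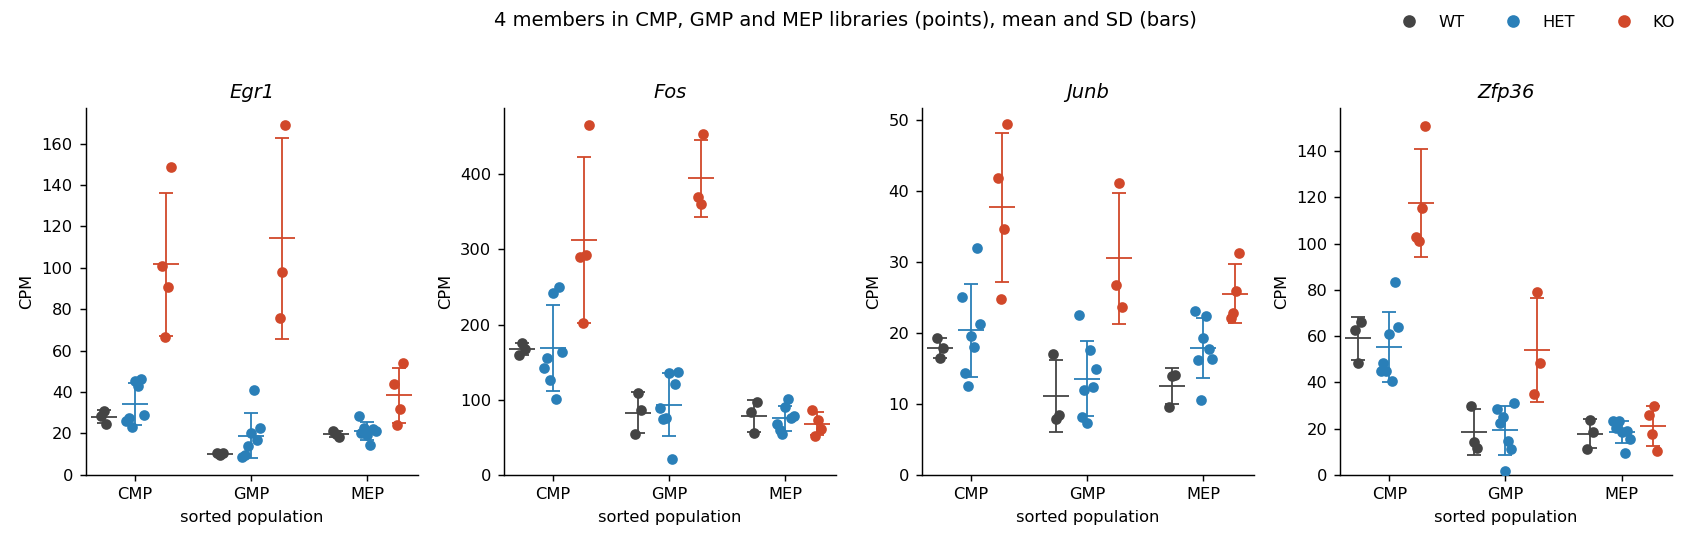
CPM of Egr1, Fos, Junb and Zfp36 in each CMP, GMP and MEP library (points, by genotype) with the group mean (wide bar) and SD (error bar). KO libraries lie above WT for all 4 genes in CMP and GMP; in MEP, Egr1 and Junb KO libraries do so and Fos and Zfp36 overlap.

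In GMP, Egr1 was 10.5, 9.33 and 10.7 CPM in WT and 75.9, 98.0 and 169 CPM in KO. The KO libraries lay above all WT and all 7 HET libraries, of which the highest had 40.9 CPM. The difference was 11.2-fold (log2 3.49 ± 0.60, adjusted p = 0.02), and Egr1 was the 1 member of 10 called, where 0.204% of 12239 genes passed. Against HET it was 2.67 ± 0.43 (adjusted p = 0.011), 1 of 10 members where 0.261% of genes passed.

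The GMP call rested on few libraries. Without WT library 2, 5 or 12, or KO library 15, the adjusted p against WT was 0.0961, 0.154, 0.123 and 0.0615, while the log2 value stayed between 3.07 and 3.72 over all fits that left out 1 library. With series as a block it was 3.13 (adjusted p = 0.0836). Within M32, the only GMP series with both genotypes, 1 KO library had 75.9 CPM and the WT mean was 9.91. Against HET the call was lost without KO library 15 (adjusted p = 0.0935) and without the 4 GMP libraries beyond a length index of 1, which leaves 1 KO library (adjusted p = 0.0707).

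Fos was 54.1, 108 and 85.7 CPM in GMP WT and 370, 360 and 453 CPM in KO, with no overlap, a log2 difference of 2.25 ± 0.61 (adjusted p = 0.272). Ier2 was 35.5, 75.6 and 69.7 CPM in WT and 245, 128 and 368 CPM in KO, and Dusp1 47.6, 227 and 176 CPM and 518, 312 and 610 CPM. In all, 7 of 10 members (Egr1, Fos, Junb, Ier2, Ier3, Zfp36 and Dusp1) had every KO library above every WT library, where 5.83% of genes did. Their fold estimates ran from 2.79 (Junb) to 11.2 (Egr1). The Fosb range was 0.245 to 10.5 CPM in WT and 2.48 to 9.29 CPM in KO, and the Jun range 8.34 to 41.98 and 14.6 to 35.4 CPM. Atf3 was at 0, 0.245 and 0.298 CPM in WT and at 5.93, 0 and 28.4 CPM in KO. DESeq2 called Egr1 and Fos.

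The GMP libraries also differed in make-up. Spike-in RNA was 2.52 to 3.06% of reads in KO and at most 0.394% in any other GMP library, so the share and the KO genotype can hardly be told apart. With that share as a covariate, Egr1 was 4.53 (adjusted p = 0.00564) and Fos 0.25 (adjusted p = 0.836). The length index was -1.50 and -1.60 in KO libraries 6 and 15, and -0.41 to 0.75 in WT. With it as a covariate, Egr1 was 3.59 (adjusted p = 0.00838), Fos 1.86 (adjusted p = 0.0271), Ier2 1.28 (adjusted p = 0.0645) and Dusp1 1.13 (adjusted p = 0.272). With genotype means removed, the index was related to Ier2 (Pearson r -0.97, Spearman rho -0.95), Fos (-0.87 and -0.81) and Dusp1 (-0.87 and -0.87) over the 13 GMP libraries, with permutation p of r, adjusted over 39 relations in all populations, of 0.000195, 0.00123 and 0.000195. Without the 2 libraries farthest from the median index, these r were -0.93, -0.66 and -0.85. Fosb went the other way, with r 0.71 and rho 0.62 (adjusted permutation p of r = 0.0272), and r 0.46 without those 2 libraries. Egr1 had r 0.26 with the index (adjusted permutation p = 0.505). Neutrophil and monocyte markers (9 of 9) summed to 12529 to 32581 CPM in WT and 11866 to 21700 in KO, where 1 of the 9 had no read. Of these, S100a8, S100a9, Ly6c2 and Camp fell in KO (log2 -8.54, -7.49, -7.38 and -8.80, adjusted p = 0.00787, 0.00711, 0.00154 and 0.02). Elane and Ctsg (-4.06 and -3.45) and Mpo, Prtn3 and Ltf (-0.31, -0.38 and -2.34) did not pass. Macrophage markers (11 of 11) summed to 140 to 175 CPM in WT and 82.8 to 253 in KO. The part of these cells in the GMP member levels was not tested. GMP HET against WT called 0 of 10 members (0 unadjusted, 0 by DESeq2), and 0% of genes.

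In MEP no member was called in KO against WT (0 of 9 by edgeR, 2 at an unadjusted p under 0.05, 1 by DESeq2), where 0.00856% of 11686 genes passed. Egr1 was 21.098, 19.58 and 18.5 CPM in WT and 44.1, 23.9, 31.8 and 53.9 CPM in KO, a log2 difference of 0.96 ± 0.31 (adjusted p = 0.428). Junb was 9.59, 13.9 and 14.1 CPM in WT and 22.04, 22.78, 25.9 and 31.2 CPM in KO, a log2 difference of 1.02 ± 0.30 (adjusted p = 0.328, and 0.0479 by DESeq2). Egr1, Junb and Ier2 were the 3 of 9 members with every KO library above every WT library, where 4.07% of genes were. Fos overlapped, with 83.2, 55.4 and 97.3 CPM in WT and 86.7, 51.3, 73.5 and 61.3 CPM in KO. Ier2 in KO rested on library 15, with 246 CPM against 33.4 to 43.3 in the others, a library whose length index was -1.83. Over the 14 MEP libraries, with genotype means removed, Ier2 had r -0.95 and rho -0.89 with the index (adjusted permutation p = 0.00039), and r -0.76 without the 2 farthest libraries. Dusp1 had r -0.92, and Ier3 and Zfp36 went the other way, with r 0.87 and 0.81 (adjusted permutation p = 0.00039, 0.00039 and 0.00575). Without the 2 farthest libraries, these r were -0.76, 0.81 and 0.41. Markers of other cells differed between MEP WT and KO. B cell markers (6 of 6) summed to 237 to 1455 CPM in WT and 73.1 to 178 in KO, without overlap, and erythroid markers (7 of 8 listed) to 2249 to 18039 and 665 to 3163. Their part in the member levels was not tested. MEP KO against HET also called 0 (2 unadjusted, 1 by DESeq2, Egr1), where 0.0171% of genes passed, and HET against WT 0 (0 unadjusted, 0 by DESeq2), where 0% did.

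**Figure D4:**
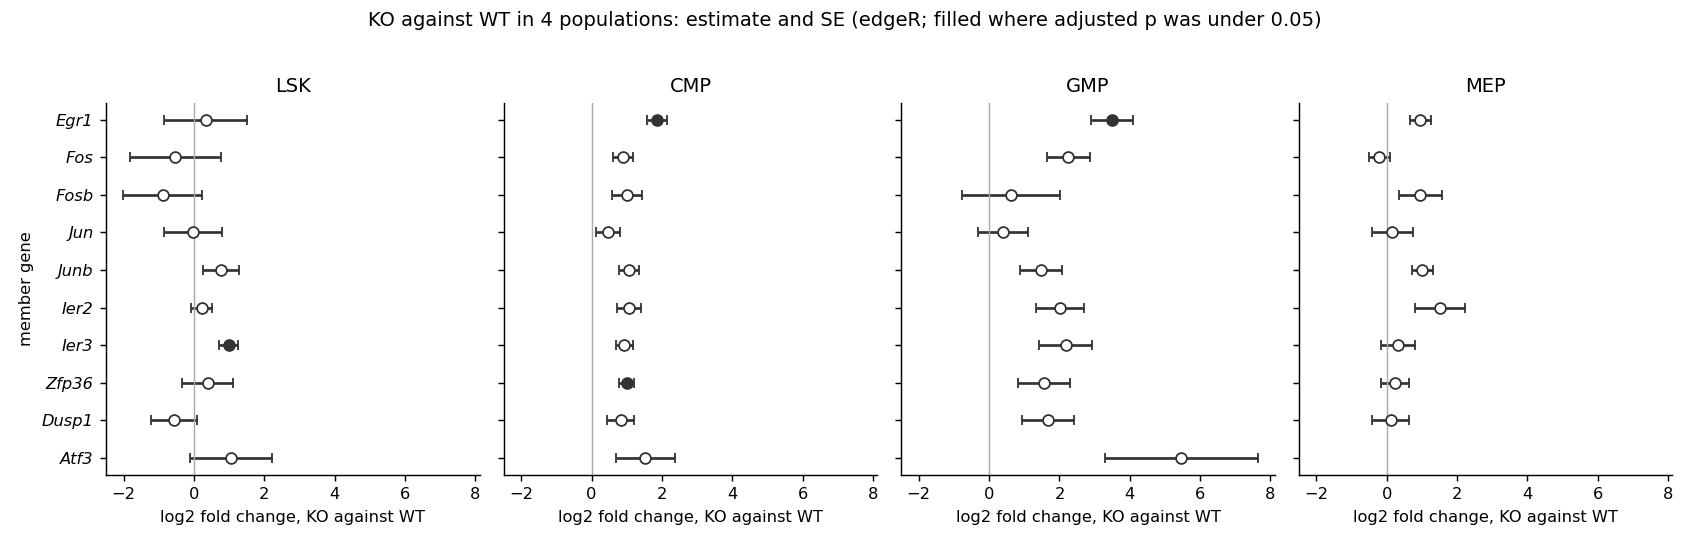
Log2 fold change of KO against WT with its SE (x axis) for the 10 genes (y axis) in each population, filled where the edgeR adjusted p was under 0.05; Atf3 has no MEP value. Filled points are Ier3 in LSK, Egr1 and Zfp36 in CMP and Egr1 in GMP, and all 10 CMP estimates lie above 0.

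The difference between KO effects was tested in 1 model over CMP, GMP and MEP, on 11829 genes, without a term for the spike-in share or the length index. The KO effect on Egr1 was larger in GMP than in MEP by 2.61 ± 0.55 on the log2 scale (adjusted p = 0.0158), and that on Fos by 2.51 ± 0.55 (adjusted p = 0.0195). These were 2 of 9 members, where 0.414% of genes passed. The Egr1 call was lost without the libraries of title number 2, 5 or 12 (adjusted p = 0.097, 0.155 and 0.0986), and the Fos call without number 2, 11, 12 or 15 (adjusted p = 0.211, 0.0511, 0.184 and 0.0772). Between GMP and CMP the Egr1 difference was 1.67 (adjusted p = 0.396) and 0 of 9 members passed (2 unadjusted, 0 by DESeq2), where 0.0169% of genes did. Between MEP and CMP 0 passed (1 unadjusted, 0 by DESeq2), where 0% of genes did. LSK was not in this model, since its counts were deposited apart, so no difference from LSK was tested.

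Among WT libraries, with each population scaled on its own, Egr1 was 28.0 ± 3.07 CPM in CMP, 19.7 ± 1.32 in MEP and 10.2 ± 0.75 in GMP (n = 3 each), and 3.82 to 183 CPM in LSK. The 3 ranges of CMP, MEP and GMP did not overlap, but no member differed between WT populations over all genes. GMP against CMP called 0 of 9 members (4 unadjusted, 0 by DESeq2), where 1.03% of genes passed. MEP against CMP called 0 (3 unadjusted, 1 by DESeq2), where 3.1% did, and GMP against MEP 0 (1 unadjusted, 0 by DESeq2), where 6.95% did. Zfp36, 59.1 ± 9.36 CPM in CMP and 17.8 ± 6.33 in MEP, came nearest (log2 -1.64 ± 0.52, adjusted p = 0.0823). Per kilobase of exon, Fos was the most abundant member in WT CMP, at 71.2 CPM per kb, followed by Ier2 at 31.6 and Dusp1 at 25.3, and Fosb (0.942) and Atf3 (0.546) were the least.

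The 5 genes whose deviations from the group mean were most like those of Egr1 over all 64 libraries were Fos (Pearson r 0.91), the histone genes Hist1h2ac (0.81) and Hist1h2bg (0.80), Junb (0.78) and Zfp36 (0.77), among 10441 other genes. The likeness lay in the LSK libraries. Over the 23 LSK libraries Fos had r 0.97, and over the other 41 libraries r -0.08. The 23 fall into the 5 title series described above, so these values describe the same differences between series. In the other 41, Egr1 and Junb had r 0.21, and Egr1 and Jun -0.23.

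Genes outside the 10 were read from lists. Of the other AP-1 family genes (12, of which 8 were tested in LSK and 7 in CMP and GMP), 0 passed in KO against WT in any population by edgeR, with 1 at an unadjusted p under 0.05 in LSK, 1 in CMP and 2 in GMP. Of other immediate early genes, 2 of 26 rose in CMP KO against WT, where 1.84% of all genes were called, Btg2, an antiproliferative gene (log2 1.00 ± 0.22, adjusted p = 0.0222), and Dusp2, a MAP kinase phosphatase (0.80 ± 0.20, adjusted p = 0.0451), and 0 fell. Their median was 0.39, against -0.01 over all genes tested. Against HET, Btg2 (0.97) and Ier5 (1.18, adjusted p = 0.00963) rose, where 2.19% of all genes were called. In GMP 0 of 24 passed (6 unadjusted). In LSK 5 of 29 rose in KO against WT and 0 fell, a share near the 18.8% of all genes called there, with the lowest p for Zfp36l2 (0.28 ± 0.07, adjusted p = 0.00491), Bhlhe40 (2.28 ± 0.62, adjusted p = 0.0118) and Tnfaip3 (0.93 ± 0.26, adjusted p = 0.0153).

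Of ERK feedback genes, 1 of 7 rose in CMP KO against WT, where 1.84% of all genes were called in either direction, the ERK phosphatase Dusp5 (1.22 ± 0.31, adjusted p = 0.0487). In CMP KO against HET, where 2.19% were called, 1 rose, Spred1 (0.91 ± 0.23, adjusted p = 0.0454). Of the 10 ERK feedback genes tested in LSK, Spry4, an inhibitor of growth factor signalling, fell in KO against HET (-1.50 ± 0.43, adjusted p = 0.0227). In that comparison 11.1% of all genes passed. Spry4 was 0.96 in HET against WT (adjusted p = 0.489) and -0.55 in KO against WT (adjusted p = 0.545), neither called. Of SRF and its partners, Elk3 rose in LSK KO against WT (0.32 ± 0.07, adjusted p = 0.00275), 1 of 6, again near the 18.8% of all genes, and 0 of 6 passed in CMP or GMP, with 1 unadjusted in each. Nab1 or Nab2 and the other EGR genes gave 1 tested gene of 5, which did not pass. Of the heat shock genes, 5 of 10 fell in LSK KO against WT, where 18.8% of all genes were called, led by Hspd1 (-0.55 ± 0.07, adjusted p = 1.87e-05), and 0 of 8 passed in CMP or GMP, with 2 and 0 unadjusted. For the series term in LSK, 14 of 29 other immediate early genes passed, led by Klf2, Klf6 and Btg2. So did 4 of 10 heat shock genes, led by Hsph1, Hspa1a and Hspa1b, against 11.9% of all genes tested.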

How the data were processed

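The authors deposited whole-number read counts per Ensembl gene. The submitters' processing notes list featureCounts and the builds mm10 and GRCm38. Aligner and annotation release: not given in the sources used here. Libraries were made by Smart-seq2 per the labels' protocols, so reads are amplified, carry no molecular identifier or strand, and are not independent molecules. Genes were matched by identifier to GENCODE M21.

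Each population was fitted in edgeR 4.0.16 (R 4.3.3; quasi-likelihood, robust, TMM) over all 3 genotypes. Genes were kept by filterByExpr (minimum count 10, minimum total 15), and p-values were Benjamini-Hochberg adjusted over all genes kept, with a threshold of 0.05. Every adjusted p of a gene in the text is edgeR's unless DESeq2 (1.42.0) is named. CPM use TMM-scaled totals of gene reads, without spike-ins. A joint model covered the 11902 genes listed for CMP, GMP and MEP. The SE was taken as the size of the log2 fold change over the root of its F value. The length index is a library's median log2 CPM deviation over genes with more than 5000 exonic bases minus that over genes with fewer than 1500. The fits were tested on simulated counts.

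The 10 members and the lists were chosen with earlier results of these data known. Beyond the 10 members, Smarcd2, some markers of the cell type lists, and up to 3 genes per other list and comparison are named. The latter had the smallest unadjusted p among those passing. The 5 most like Egr1 are named too, among genes whose mean log2 CPM reached 1 in each population. Alternatives were other scaling, no filter, DESeq2, pairs of groups alone, series or replicate blocks, covariates (spike-in share, length index, sex), and leaving out each library. The series test, the relations with the length index and the fits without libraries beyond a length index of 1 were added after seeing the data. All deposited columns were used.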

Additional observations from a re-analysis of the deposited data

Results flagged for a closer look

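In 78 groups of 4 to 10 libraries, 8 had a library far from the rest of its group for a member; chance gives about 1 in 20. HET library 8 was the highest in 6 of them. In GMP it had 17.5 CPM of Atf3 (next 1.01), 23.4 of Fosb (next 4.67) and 40.9 of Egr1 (next 22.44), and it was also the GMP library with the most genes detected, 27233, and the highest length index, 3.24. In CMP it had 6.74 CPM of Atf3 (next 2.54). In MEP it had 218 CPM of Dusp1 (next 86.4) and 123 of Ier2 (next 50.9), with a length index of -1.57. MEP KO library 15 had 145 CPM of Dusp1 (next 65.0) and 246 of Ier2 (next 43.3).

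The KO effects on Egr1 and Fos differed between GMP and MEP, by 2.61 and 2.51 on the log2 scale in the joint edgeR model. The Egr1 call was lost without title number 2, 5 or 12, and the Fos call without 2, 11, 12 or 15. The model held no term for the spike-in share or the length index, and their part in these differences was not tested.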

How the results depend on the processing

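Members called changed as follows; the causes were not tested. LSK KO against WT went from 1 to 0 with the spike-in share in the model, and LSK KO against HET from 1 to 0 without the count filter. CMP KO against WT went from 2 to 4 by DESeq2, 4 with only the 2 groups, 1 with series as a block, 1 with the spike-in share and 4 with the length index, and ran from 1 to 5 when 1 library was left out. CMP KO against HET went from 3 to 1 with series as a block, 1 with the spike-in share and 5 with the length index. GMP KO against WT went from 1 to 2 by DESeq2, 0 with series as a block, 2 with the spike-in share and 2 with the length index, and ran from 0 to 2 when 1 library was left out. GMP KO against HET went from 1 to 4 by DESeq2, 0 with series as a block, 2 with the spike-in share, 3 with the length index and 0 without libraries beyond a length index of 1, and ran from 0 to 3 when 1 library was left out. MEP KO against WT and MEP KO against HET each went from 0 to 1 by DESeq2, as did WT MEP against CMP. The 3 WT comparisons each ran from 0 to 1, and KO effects that differ between GMP and MEP from 0 to 2, when 1 title number was left out. Of the 9 members correlated with Egr1 over LSK libraries, 9 passed with genotype means removed and 5 with series means removed as well.

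Over all alternatives, 3649 values of single members kept their side of the threshold, 40 lost it and 40 gained it, and 0 called values changed sign. In CMP KO against WT, 0 of 208 alternatives turned a sign. All-gene calls in KO against WT ran from 1405 to 3032 in LSK (main 2610), 83 to 504 in CMP (215), 3 to 1696 in GMP (25) and 1 to 118 in MEP (1). In KO against HET they ran from 64 to 449 in CMP (255), 6 to 1196 in GMP (32) and 1 to 161 in MEP (2). In LSK HET against WT they reached 31 by DESeq2 (1). In the joint model they ran from 15 to 433 for WT GMP against CMP (122), 149 to 655 for MEP against CMP (367), 335 to 1576 for GMP against MEP (822), and for KO effects from 1 to 513 for GMP against CMP (2), 0 to 10 for MEP against CMP (0) and 13 to 521 for GMP against MEP (49).

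CMP, GMP and MEP titles share numbers. Same-numbered libraries deviated together with r above 0.1 in 9 of 13 (CMP and GMP), 12 of 14 (CMP and MEP) and 5 of 13 (GMP and MEP) cases. In 6, 7 and 2 cases the best correlation was with the own number. For single members, r between same-numbered CMP and GMP libraries was 0.80 (Ier2), 0.73 (Fos), 0.65 (Dusp1), 0.62 (Egr1), 0.23 (Junb) and 0.07 (Fosb). It was -0.38 for Jun, -0.23 for Zfp36 and -0.09 for Ier3. Since the labels do not say whether 1 number marks 1 fetus, the main model took no pairs. The CMP and GMP results may therefore not be independent. With the replicate block, the KO effects between GMP and MEP differed by 2.37 for Egr1 (adjusted p = 0.0439) and 2.35 for Fos (adjusted p = 0.044), and no call of a member changed; over all genes, 13 effects were larger and 19 smaller in GMP under the block, against 49 in all without it.

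Low counts limit Atf3 and Fosb, which had 0 reads in some libraries; by genotype their estimates in LSK and GMP had an SE near or above 1 on the log2 scale.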
